A study of Mus musculus with 12 samples.

Results

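The immediate early genes of the AP-1 and Egr type were followed through naïve and lysolecithin-injured spinal cord white matter of young and middle-aged mice. The set held 10 genes chosen by symbol, Fos, Fosb, Fosl1, Fosl2, Jun, Junb, Jund, Egr1, Egr3 and Ier2, out of 46078 gene identifiers in the count table. Young mice were 6 weeks old and middle-aged mice 8 months old, both C57Bl6. Injured mice carried a lesion made by injecting lysolecithin, a detergent-like lipid that strips myelin, into the ventrolateral white matter, and were taken 72 h later (day 3). Naïve mice are given no injection in the labels or methods, so the effect of lysolecithin and that of the needle cannot be told apart. White matter was cut from 20 µm frozen sections by laser capture microdissection. Each of the 4 groups had 3 samples, and each sample pooled tissue from 5 mice, so the spread between single mice was not measured.

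AP-1 is a transcription factor made of a Fos-type protein paired with a Jun-type protein, and the pair binds short DNA sites through a basic leucine zipper. Most of its genes are immediate early genes: growth factors, cytokines, calcium entry or injury switch them on within minutes, through MAP kinases, serum response factor and CREB, without any new protein being made. Egr1 and Egr3 encode zinc finger factors of the same first wave, and Ier2 encodes a small nuclear protein induced with them. In the nervous system these genes are used as marks of neuronal activity, but glia, macrophages and fibroblasts also switch them on during wound responses and phagocytosis.

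Sequencing depth was even, with 9834447 to 12807437 counts per pool, and a floor of 3 counts stood at 0.234 to 0.305 CPM (the count over the library total, scaled to a common total). Levels are given as CPM with library sizes scaled by the trimmed mean of M values (TMM), and levels of different genes are compared only as CPM per kilobase of exon. The tissue carried its labelled markers: the 7 oligodendrocyte markers summed to 87740 to 103300 CPM in young naïve and 53490 to 60790 CPM in middle-aged naïve pools. After injury they summed to 18960 to 21240 CPM in young and 8294 to 12830 CPM in middle-aged pools. The 7 pan-myeloid markers moved the other way, from 79.4 to 112.0 CPM in young naïve pools to 1610 to 1646 CPM in young injured pools, and from 126.2 to 176.2 CPM to 1695 to 2220 CPM in middle-aged mice. In such bulk tissue, more cells of a type and more RNA per cell cannot be told apart. Nothing in the labels ties the pools of a group beyond their number. Unless stated otherwise, p-values weigh a difference against the spread between pools. That spread was estimated in a fit to the pools of all groups, not only those compared. It does not include the spread between single mice. The reads were amplified, so the floor and counting intervals cover counting error only.

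Before the values, the promoters of Fos, Jun and Junb are shown, since these are the AP-1 genes that rose at both ages and whose transcript starts in RefSeq and GENCODE lay within 30 bases of each other. RefSeq windows on GRCm38.p6, 250 bases before to 50 bases after the start, were found for 6 of the 10 genes (Fos, Fosb, Fosl2, Jun, Junb and Jund). The 250 bases before the start are printed 5′ to 3′ on the gene's strand. Capitals mark any TATA box (TATAAA), core of the cyclic AMP response element (TGACG) or AP-1 variant of the Jun type (TGACATCA). The last of these was added after the sequences had been read.
Fos, chr12:85473640-85473889, plus strand: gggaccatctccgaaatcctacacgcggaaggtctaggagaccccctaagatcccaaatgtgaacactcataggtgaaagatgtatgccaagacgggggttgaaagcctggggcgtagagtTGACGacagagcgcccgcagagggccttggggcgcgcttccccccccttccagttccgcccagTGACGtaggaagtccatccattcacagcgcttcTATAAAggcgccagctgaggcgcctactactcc
Jun, chr4:95052223-95052472, minus strand: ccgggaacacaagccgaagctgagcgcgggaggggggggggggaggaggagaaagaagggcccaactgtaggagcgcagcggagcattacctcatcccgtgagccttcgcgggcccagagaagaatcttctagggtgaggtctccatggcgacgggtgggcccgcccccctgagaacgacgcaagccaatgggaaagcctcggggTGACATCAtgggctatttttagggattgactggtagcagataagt
Junb, chr8:84978749-84978998, minus strand: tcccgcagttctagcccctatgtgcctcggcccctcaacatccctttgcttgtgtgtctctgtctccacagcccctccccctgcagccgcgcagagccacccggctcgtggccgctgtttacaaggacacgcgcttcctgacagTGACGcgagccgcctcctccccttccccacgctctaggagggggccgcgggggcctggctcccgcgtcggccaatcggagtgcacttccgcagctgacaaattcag

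In the Fos promoter the TATA box began 33 bases before the start and the short sites TGACG began 129 and 66 bases before it. The Jun promoter held no TATAAA and no TGACG, and its TGACATCA began 45 bases before the start. In Junb a TGACG began 106 bases before the RefSeq start. A TATAAA began at the RefSeq start base itself, which is 30 bases before the start given by GENCODE. Both strands of all 32851 RefSeq windows of the same length were searched. TATAAA was held by 13.6% of them, TGACG by 20.8% and TGACATCA by 3.62%. An Egr site (GCGNGGGCG, held by 5.55% of windows) was found in Fosb and Fosl2, 50 and 79 bases before the RefSeq start, and in none of the other 4 windows. The GENCODE start lay 671 bases upstream of the RefSeq start in Fosl2 and 1210 bases downstream of it in Jund. The Fosl2 site therefore lay inside the GENCODE gene, and the Jund window did not reach the bases just before its GENCODE start. The full cyclic AMP response element (TGACGTCA, which contains TGACG; 1.79% of windows), the consensus AP-1 site (TGANTCA; 7.81%) and the CArG box bound by serum response factor (1.63%) were in none of the 6. These matches describe letters in the windows and carry no measurement of binding. Bases outside the windows were not searched, so a site absent here can lie farther from the start.

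In young mice, injury raised 7 of the 9 genes that could be tested and lowered 1. Egr1, Junb and Fosl2 rose most, Fosl1, Ier2, Fos and Jun rose less, and Jund fell. In middle-aged mice 6 rose, the same set without Fosl1, and Jund again fell. The tests were edgeR quasi-likelihood tests with Benjamini-Hochberg adjustment over 15866 genes and a threshold of 0.05. Injury reached most of the transcriptome: in young mice 54.6% of all tested genes passed (28.3% higher and 26.3% lower), and in middle-aged mice 58.5% passed (29.2% higher and 29.3% lower). The median log2 fold change of the 9 genes was 1.95 in young and 1.50 in middle-aged mice, and that of all tested genes was 0.00064 and -0.03. Egr3 did not pass the filter on low counts, having 0 counts in 11 pools and 1 count in middle-aged naïve replicate 2.

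**Figure D1:**
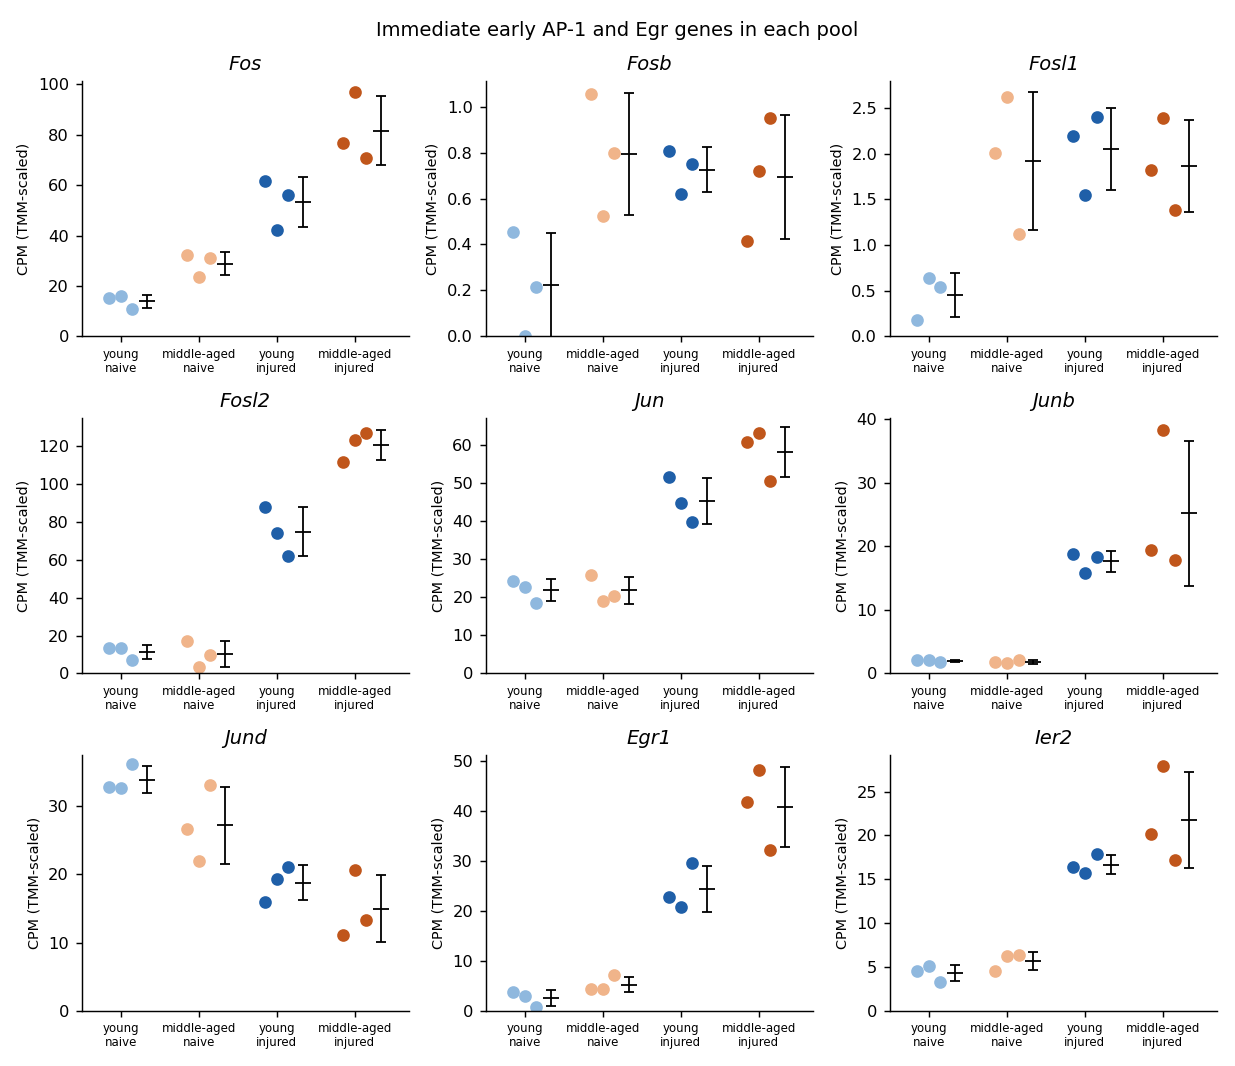
TMM-scaled CPM (vertical axis, starting at 0) of 9 immediate early genes in each of the 12 pools, with points for pools in replicate order and the mean with its SD beside them; the SD of Fosb in young naïve pools is cut off at 0. Fos, Fosl2, Jun, Junb, Egr1 and Ier2 lay higher in all 6 injured pools than in all 6 naïve pools, and Jund lay lower in all 6. The share of all tested genes so separated is not given here, so this describes each gene and is no result about the set.

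Fos (ENSMUSG00000021250; chr12:85473890-85477273, plus strand) encodes the founding Fos protein, which needs a Jun protein as partner because it does not form stable pairs with itself. Its level was 15.0, 15.8 and 10.8 CPM in the young naïve pools and 61.5, 42.1 and 56.0 CPM in the young injured pools. In middle-aged mice it was 32.1, 23.6 and 30.9 CPM in naïve and 76.8, 97.0 and 70.9 CPM in injured pools. The 4 groups did not overlap, with young naïve lowest and middle-aged injured highest. Injury raised Fos by 1.93 ± 0.20 on the log2 scale (SE; adjusted p = 1.62e-06, edgeR) at the younger age. In middle-aged mice the rise was 1.50 ± 0.19 (adjusted p = 1.21e-05).

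Fosl2 (ENSMUSG00000029135; chr5:32135801-32157842, plus strand) encodes Fra-2, a Fos relative without the strong activation domain of Fos. Young naïve pools held 13.7, 13.3 and 6.98 CPM and young injured pools 88.0, 74.0 and 62.0 CPM. Middle-aged naïve pools held 17.3, 3.46 and 9.91 CPM and middle-aged injured pools 112, 123 and 127 CPM. Naïve pools of both ages overlapped, middle-aged naïve replicate 2 being lowest of all 12, and every injured pool stood above every naïve pool. In young mice the rise was 2.71 ± 0.38 (adjusted p = 2.7e-05), 6.56-fold. At the older age it was 3.55 ± 0.39 (adjusted p = 2.24e-06), 11.7-fold.

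Fosl1 (ENSMUSG00000024912; chr19:5447547-5455946, plus strand) encodes Fra-1, a Fos relative common in migrating and wound-edge cells. It was low throughout, with 2, 7 and 5 counts in the young naïve and 21, 25 and 14 counts in the middle-aged naïve pools. The injured pools had 30, 20 and 32 counts in young and 22, 30 and 16 counts in middle-aged mice. As CPM these were 0.182, 0.634 and 0.537 in young naïve, 2.20, 1.55 and 2.41 in young injured, 2.01, 2.62 and 1.12 in middle-aged naïve and 1.82, 2.39 and 1.38 in middle-aged injured pools. Only the young naïve group stood apart, below the other 3 groups, which overlapped. Fosl1 rose by 2.17 ± 0.51 on injury in young mice (adjusted p = 0.00247). In middle-aged mice its log2 fold change was -0.02 ± 0.45 (adjusted p = 0.967). The difference of these effects, -2.19 ± 0.68, did not pass (adjusted p = 0.243).

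Fosb (ENSMUSG00000003545; chr7:19302696-19310051, minus strand), whose short ΔFosB product builds up under repeated stimulation of neurons, was near the floor. Young mice had 5, 0 and 2 counts in naïve and 11, 8 and 10 in injured pools. Middle-aged mice had 11, 5 and 10 in naïve and 5, 9 and 11 in injured pools. As CPM, young naïve pools held 0.455, 0 and 0.215, below the 0.619 to 0.806 CPM of the young injured pools without overlap. The log2 fold change on injury was 1.66 ± 0.73 in young mice (adjusted p = 0.0677). At the older age it was -0.20 ± 0.62 (adjusted p = 0.803). Neither passed the threshold. The young value rested on single pools, being 1.07 without young naïve replicate 2 and 2.74 without young naïve replicate 1. It passed in the latter case (adjusted p = 0.0266, edgeR) and with library totals alone as the scaling (adjusted p = 0.0448).

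Jun (ENSMUSG00000052684; chr4:95049034-95052222, minus strand) encodes c-Jun, the target of the Jun N-terminal kinases. Its levels were 24.2, 22.6 and 18.6 CPM in young naïve and 51.5, 44.8 and 39.6 CPM in young injured pools. They were 25.9, 19.1 and 20.5 CPM in middle-aged naïve and 60.7, 63.0 and 50.6 CPM in middle-aged injured pools. The naïve pools of both ages overlapped, and of the middle-aged injured pools only replicate 3 lay inside the young injured range. Jun rose by 1.05 ± 0.17 (adjusted p = 9.28e-05) in young and 1.41 ± 0.17 (adjusted p = 5.13e-06) in middle-aged mice, 2.07-fold and 2.66-fold.

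Junb (ENSMUSG00000052837; chr8:84974484-84978718, minus strand) encodes a weaker activator than c-Jun that can oppose it at some sites. It was 2.09, 2.08 and 1.83 CPM in young naïve and 18.8, 15.7 and 18.4 CPM in young injured pools. In middle-aged mice it was 1.82, 1.57 and 2.16 CPM in naïve and 19.4, 38.3 and 17.9 CPM in injured pools. Replicate 2 of the middle-aged injured group stood well above the other two pools, which lay in the young injured range or just over it, and the SD of that group was 11.4 CPM. Junb rose by 3.13 ± 0.30 (adjusted p = 7.79e-07) in young and 3.75 ± 0.31 (adjusted p = 1.27e-07) in middle-aged mice. Leaving out single pools moved the middle-aged value between 3.31 and 3.96.

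Jund (ENSMUSG00000071076; chr8:70698949-70700616, plus strand), the Jun gene that is expressed in resting cells and is not a classic immediate early gene, moved the other way. It was 32.9, 32.7 and 36.2 CPM in young naïve and 16.0, 19.3 and 21.1 CPM in young injured pools. It was 26.7, 21.9 and 33.1 CPM in middle-aged naïve and 11.1, 20.6 and 13.3 CPM in middle-aged injured pools. Injured and naïve pools did not overlap at either age. The log2 fold change was -0.85 ± 0.22 (adjusted p = 0.00452) in young and -0.86 ± 0.22 (adjusted p = 0.00417) in middle-aged mice, 1.80-fold and 1.82-fold lower.

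Egr1 (ENSMUSG00000038418, chromosome 18), a zinc finger activator that also switches on its own repressor Nab2, had the highest log2 fold change of the 9 genes in young mice. Its young pools held 3.82, 2.90 and 0.752 CPM when naïve and 22.8, 20.7 and 29.6 CPM when injured. Its middle-aged pools held 4.32, 4.30 and 7.03 CPM when naïve and 41.9, 48.1 and 32.2 CPM when injured. As for Fos, the 4 groups did not overlap and rose from young naïve through middle-aged naïve and young injured to middle-aged injured. Injury raised Egr1 by 3.26 ± 0.38 (adjusted p = 4.6e-06), 9.57-fold, in young mice. In middle-aged mice it raised it by 2.95 ± 0.35 (adjusted p = 5.52e-06), 7.74-fold.

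Ier2 (ENSMUSG00000053560; chr8:84661331-84662852, minus strand) had 4.55, 5.07 and 3.22 CPM in young naïve and 16.4, 15.7 and 17.8 CPM in young injured pools. Middle-aged pools had 4.51, 6.18 and 6.39 CPM when naïve and 20.1, 27.9 and 17.2 CPM when injured. Naïve pools of both ages overlapped, as did injured pools, with middle-aged injured replicate 2 highest. The rise was 1.95 ± 0.24 (adjusted p = 8.72e-06) in young and 1.93 ± 0.23 (adjusted p = 6.69e-06) in middle-aged mice. Egr3 (ENSMUSG00000033730; chr14:70077203-70082614, plus strand), the remaining zinc finger gene, was not detectable at this depth beyond the single count given above, and all 12 pools lay under the floor of 3 counts, 0.234 to 0.305 CPM.

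**Figure D2:**
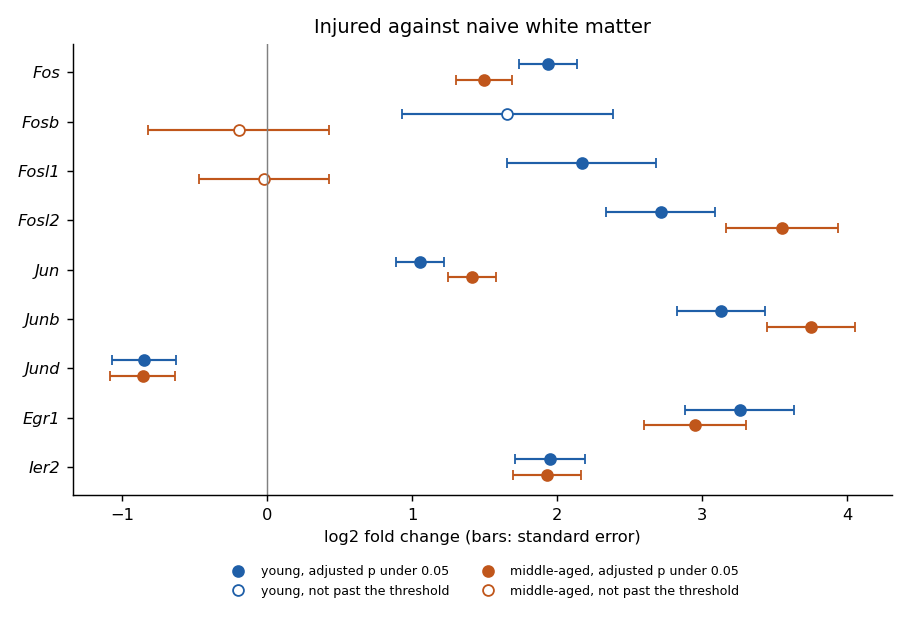
Log2 fold change of injured against naïve white matter (horizontal axis, bars are the standard error) for 9 genes in young and middle-aged mice, with filled points for an adjusted p under 0.05. Egr1, Junb and Fosl2 lie farthest to the right, Jund lies at -0.85 and -0.86, and the middle-aged points of Fosb and Fosl1 lie at -0.20 and -0.02.

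Since injury moved so many genes, the place of each tested member among all 15866 tested genes is also given. In young mice 5.99% of genes had a higher log2 fold change than Egr1, 6.32% than Junb, 7.65% than Fosl2, 11.3% than Fos and 19.8% than Jun. In middle-aged mice these shares were 6.01% for Egr1, 3.96% for Junb, 4.41% for Fosl2, 14.2% for Fos and 15.1% for Jun. Jund lay in the lower part of the distribution, with 20.3% of genes below it in young and 23.5% in middle-aged mice. Fosl1 had 9.99% of genes above it in young and 49.7% in middle-aged mice. Ier2 had 11.2% and 10.8% above it, and Fosb 13.1% and 56.1%.

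Some pools held the extreme value of their group for several members at once. Middle-aged injured replicate 2 was the highest pool of its group for 7 of the 9 genes (36.4% of all genes were highest there). Middle-aged naïve replicate 2 was the lowest of its group for 7 of 9 (39.6% of all genes), and young naïve replicate 3 for 6 of 9 (38.6%). With 3 pools per group, no cause of this was tested. The injury counts did not rest on a single pool: without each pool in turn 8 to 9 genes passed in young and 7 in middle-aged mice, the ninth being Fosb without young naïve replicate 1.

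Some reads may belong to genes that overlap the members, since the strand setting of the counting is not given in the sources used here. Jun overlaps Junos, an antisense transcript on the plus strand, over 689 bases, and Junos rose by 1.33 and 2.48 on injury in young and middle-aged mice at 2 to 43 counts per pool. Jund overlaps the antisense gene Gm11175 over 919 bases, and Gm11175 fell by 1.09 and 1.06 at 44 to 153 counts. Junb overlaps the end of Prdx2, a peroxiredoxin gene, over 351 bases, and Prdx2 gave log2 fold changes of -0.02 and -0.13, which did not pass. Fosl1 overlaps Ccdc85b over 2767 bases, and Ccdc85b had 0 to 3 counts. Reads in the shared spans of Jun, Junb, Jund and Fosl1 therefore cannot be told apart from those of the partners.

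Compared per length of exon, the order of the genes changed with injury. In young naïve pools Jund led with 20.3 ± 1.19 CPM per kb, above Jun at 6.84 ± 0.910 and Fos at 5.91 ± 1.14, and the last pair overlapped. Ier2 (2.81 ± 0.626) came next, then Fosl2, Junb, Egr1 and Fosl1, each overlapping the next, with Fosb below them. In middle-aged naïve pools Jund (16.3 ± 3.36) and Fos (12.3 ± 1.97) overlapped at the top. In injured pools Fos led, with 22.6 ± 4.25 CPM per kb in young and 34.7 ± 5.81 in middle-aged mice, and did not overlap Jun, the next gene, at 14.2 ± 1.86 and 18.2 ± 2.06. Jund was the third in young injured pools (11.3 ± 1.56), overlapping both Jun and Ier2, and the seventh in middle-aged injured pools (8.98 ± 2.97), overlapping Egr1 above it. Fosl1 and Fosb stayed below the other tested genes in injured pools, at 1.01 ± 0.220 and 0.116 ± 0.0154 in young and 0.917 ± 0.250 and 0.111 ± 0.0429 in middle-aged mice.

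Within the Jun family, which supplies the partner that Fos proteins need, Jund made up 72.5 ± 3.62% of the summed CPM per kb in young naïve and 67.8 ± 4.56% in middle-aged naïve pools (SD, n = 3). After injury it made up 34.1 ± 5.21% and 23.3 ± 3.31%. Junb went from 3.10 ± 0.262% to 23.1 ± 1.77% in young pools, and in middle-aged pools it went from 3.36 ± 0.155% to 27.8 ± 5.49%. Jun went from 24.4 ± 3.37% to 42.8 ± 5.02% and from 28.8 ± 4.67% to 48.9 ± 7.71%. The naïve and injured ranges of all 3 shares did not overlap at either age. The sum over the family moved less, from 28.0 ± 0.385 to 33.1 ± 0.745 CPM per kb in young pools. At the older age it went from 24.0 ± 3.78 to 38.1 ± 9.25 CPM per kb.

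In the Fos family the sum went from 7.34 ± 1.5 to 31.5 ± 5.02 CPM per kb in young pools. In middle-aged pools it went from 14.4 ± 2.45 to 48.2 ± 6.17 CPM per kb. Fos kept the largest share in every group, at 80.7 ± 1.04% and 85.4 ± 3.13% in young and middle-aged naïve and 71.7 ± 3.87% and 71.8 ± 3.13% in young and middle-aged injured pools. Fosl2 held 15.6 ± 2.53% and 6.89 ± 3.85% in naïve and 24.7 ± 4.31% and 26.1 ± 3.36% in injured pools. Fosl1 held 3.17 ± 1.84% and 6.88 ± 3.71% in naïve and 3.20 ± 0.480% and 1.89 ± 0.307% in injured pools of young and middle-aged mice. These shares are descriptions of transcript levels, with no test of their own, and say nothing of protein.

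**Figure D3:**
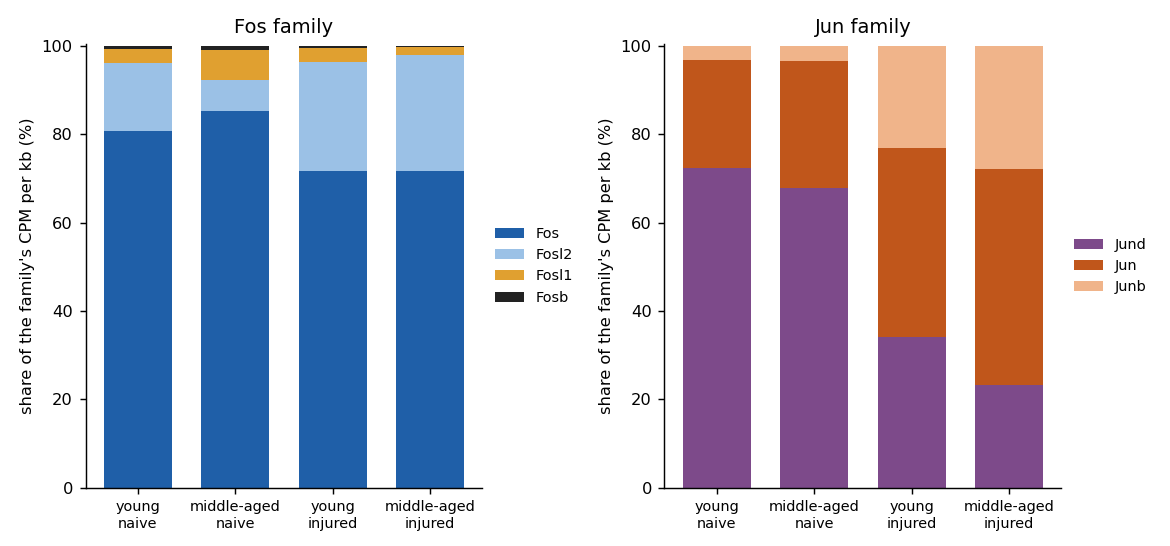
Mean share of the summed CPM per kb (vertical axis, percent) held by each gene of the Fos and Jun families in the 4 groups of 3 pools. Jund fills 72.5% and 67.8% of the Jun bar in naïve and 34.1% and 23.3% in injured groups, while Fos fills the largest part of every Fos bar.

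The second question was whether age set the level of these genes before or after injury. In naïve white matter, middle-aged pools had more Fos and Fosl1 than young pools, and these were the only 2 of the 9 genes past the threshold, where 3.8% of all tested genes passed. The Fos difference was 1.05 ± 0.20 on the log2 scale, 2.07-fold (adjusted p = 0.0100), higher in 3 of 3 pools than in every young pool. The Fosl1 difference was 2.06 ± 0.52, 4.16-fold (adjusted p = 0.0432), again without overlap. This Fosl1 call was lost in 13 of 21 alternative settings, among them leaving out any pool except middle-aged naïve replicate 3, with adjusted p from 0.015 to 0.244. The Fos call was lost in 1 of 21, the fit to the 6 naïve pools alone (adjusted p = 0.095), in which only 0.493% of genes passed.

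Egr1 (1.05 ± 0.39, adjusted p = 0.163) and Fosb (1.78 ± 0.73, adjusted p = 0.207) were also higher in every middle-aged than in every young naïve pool and did not pass. Fosb had 0 to 5 counts per young and 5 to 11 per middle-aged naïve pool. How many of all tested genes had naïve pools separated by age is not given here, so these separations describe single genes and are no result about the set. Ier2 gave 0.41, Jun -0.0014, Junb -0.10, Fosl2 -0.15 and Jund -0.31, all with overlapping pools and none past the threshold. The median over the 9 genes was 0.41, beside 0.01 over all tested genes. Pan-myeloid markers moved with this age difference: 5 of 7 rose, with a median of 1.17, from a sum of 79.4 to 112.0 CPM in young to 126.2 to 176.2 CPM in middle-aged naïve pools. Of the 6 microglial markers 3 rose, and of the 7 oligodendrocyte markers 4 fell. Their part in the Fos and Fosl1 differences was not tested.

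After injury no member passed between the ages, where 1.15% of all tested genes did. An unadjusted p under 0.05 (edgeR) was found for 3 of the 9 (Fos, Egr1 and Jun) and for 1528 of all 15866 tested genes. The log2 differences, middle-aged against young, were 0.74 ± 0.32 for Egr1, 0.69 ± 0.34 for Fosl2, 0.62 ± 0.19 for Fos and 0.51 ± 0.25 for Junb, with adjusted p of 0.431, 0.557, 0.165 and 0.558. Fos, Fosl2 and Egr1 were higher in all 3 middle-aged than in all 3 young injured pools. The share of all tested genes with pools so separated is not given here, so this separation describes each gene and is no result about the set. Ier2 gave 0.39, Jun 0.36, Fosb -0.07, Fosl1 -0.14 and Jund -0.33, each with overlapping pools. The calls of Fos, Fosl2 and Egr1 differed with the pools fitted. Fitted to the 6 injured pools alone, these 3 genes passed, with adjusted p of 0.0366, 0.00819 and 0.0248, and 5.46% of the 15048 genes tested in that fit passed. The filter, scaling, spread and adjustment all changed with the pools, and which of them mattered was not tested. Of the oligodendrocyte markers 6 of 7 passed as lower in middle-aged injured pools and none of the 7 pan-myeloid markers passed. The 5 recruited monocyte markers summed to 93.6 to 136.7 CPM in young injured and 180.8 to 229.2 CPM in middle-aged injured pools, without overlap. None of the 5 passed, and their median log2 difference was 1.02. The part of these markers in the differences of Fos, Fosl2 and Egr1 was not tested.

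**Figure D4:**
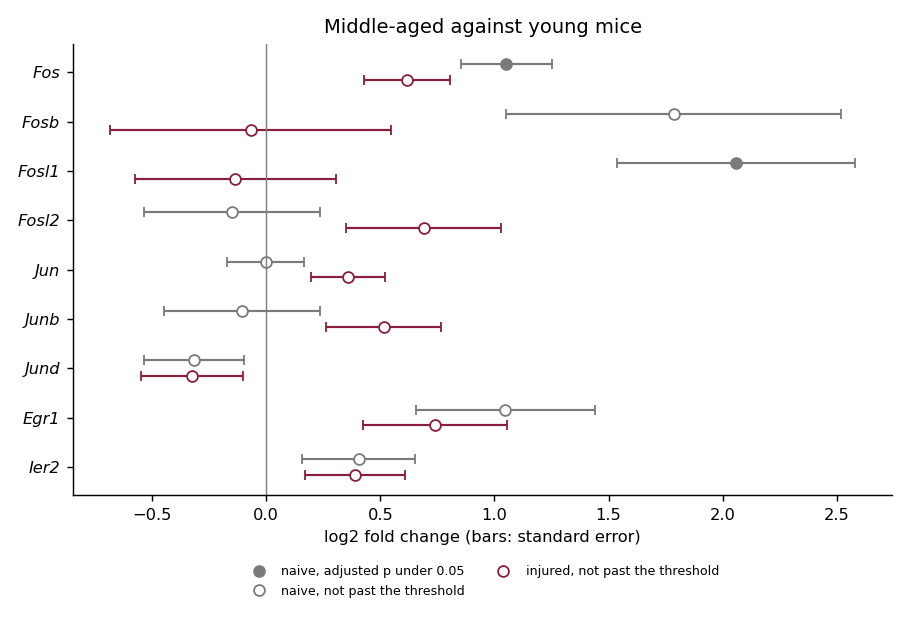
Log2 fold change of middle-aged against young mice (horizontal axis, bars are the standard error) in naïve and in injured white matter for 9 genes, with filled points for an adjusted p under 0.05. Only the naïve points of Fos at 1.05 and Fosl1 at 2.06 are filled, and the injured points of Egr1, Fosl2 and Fos lie at 0.74, 0.69 and 0.62.

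The injury effect itself was not shown to differ between ages for any member, where 0.139% of all tested genes passed that test. Besides Fosl1, the log2 differences of effect were -1.85 ± 0.96 for Fosb, 0.84 ± 0.51 for Fosl2, 0.62 ± 0.43 for Junb, -0.44 ± 0.27 for Fos and 0.36 ± 0.23 for Jun. Those of Egr1 (-0.31 ± 0.50), Ier2 (-0.02 ± 0.32) and Jund (-0.01 ± 0.31) were smaller than their SE. Fosl1 alone of the 9 genes had an unadjusted p under 0.05 (edgeR), as did 1575 of all 15866 tested genes. The SEs of these differences ran from 0.23 to 0.96. The age comparisons and the injury comparisons share pools, so their values are given side by side and not correlated.

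Genes around AP-1 were read from lists, whose counts stand against the 54.6% and 58.5% of all tested genes that passed on injury in young and middle-aged mice. Of 21 tested other immediate early genes, 16 rose and 1 fell in young mice and 16 rose and 1 fell in middle-aged mice, with medians of 1.34 and 1.35. Atf3, a stress-induced bZIP repressor and Jun partner, went from 10 to 15 counts in young naïve to 1590 to 1710 counts in young injured pools, a log2 change of 6.71 ± 0.26 (adjusted p = 1.5e-10). In middle-aged mice it rose by 5.31 ± 0.23 (adjusted p = 2.93e-10). Egr2, the Krox20 gene of the Egr family, rose by 4.67 ± 0.53 and 4.62 ± 0.48 from 0 to 9 counts per naïve pool to 70 to 132 per injured pool, and without middle-aged naïve replicate 3 the second of these values was 5.56. Arc, which marks synaptic activity of neurons, was the 1 that fell, with log2 changes of -2.28 ± 0.33 and -2.97 ± 0.36. Neuronal markers moved with Arc: 6 of 8 fell at each age and 1 rose in middle-aged mice, and their part in its fall was not tested.

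Among 14 tested bZIP partners, which pair with Fos or Jun proteins, 9 rose in young and 11 in middle-aged mice and none fell (medians 0.68 and 0.96). Batf, a leukocyte partner of Jun proteins, rose by 4.42 ± 0.54 and 5.61 ± 0.57, from 0 to 4 counts per naïve to 49 to 93 counts per injured pool. The Batf value was 5.31 in young mice without young naïve replicate 1 and 4.97 in middle-aged mice without middle-aged naïve replicate 3. The 21 inducing kinases and promoter factors were divided, with 7 higher and 7 lower in young and 10 higher and 7 lower in middle-aged mice (medians 0.05 and 0.35). Elk3, a ternary complex factor of serum response factor, rose by 2.35 ± 0.19 in young and 2.16 ± 0.19 in middle-aged mice. Rps6ka3, which encodes the kinase RSK2, rose by 1.76 ± 0.15 and 1.88 ± 0.15. Mrtfa, an actin-regulated cofactor of serum response factor, rose by 1.22 ± 0.22 and 1.92 ± 0.23. Mapk10, the neuronal Jun kinase JNK3, fell (-1.73 ± 0.18 and -1.81 ± 0.18), as did Rps6ka5, which encodes the kinase MSK1 (-1.62 ± 0.25 and -1.74 ± 0.26).

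Feedback inhibitors of the same pathways numbered 17 tested genes, of which 9 rose and 1 fell in young and 11 rose and none fell in middle-aged mice (medians 0.77 and 1.12). Nab2, the corepressor of Egr1, rose by 3.86 ± 0.29 in young mice, and Tnfaip3, which encodes the NF-κB brake A20, by 3.77 ± 0.27 and 3.50 ± 0.26. In middle-aged mice Nab2 had 10 to 17 counts in naïve and 141 to 171 counts in injured pools. Dusp5, a phosphatase of nuclear ERK, rose by 3.62 ± 0.24 in middle-aged mice, and Dusp10, a phosphatase of p38 and JNK, fell (-0.87 ± 0.20) in young mice. In young mice Dusp5 had 23 to 26 counts in naïve and 214 to 264 counts in injured pools.

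The AP-1 target genes had the highest medians of the 6 lists. Of 15 tested, 11 rose and 1 fell in young and 12 rose and 1 fell in middle-aged mice, with medians of 5.39 and 4.71, unchanged when Mmp13 was set to its bound. Mmp13, a collagenase, had 0 counts in all 6 naïve pools and 28 to 115 in injured pools, which is at least 45.6-fold higher in young and at least 52.3-fold higher in middle-aged mice against a floor of 3 counts over the group. Mmp12, the macrophage metalloelastase, had 3 counts in the young naïve pools together and 3112 in the young injured pools, a ratio of 816 with an exact 95% counting interval of 279 to 3960. On the fitted log2 scale, which depends on the prior count for both, the young value of Mmp13 went from 8.66 to 7.70 without young injured replicate 1, and that of Mmp12 from 9.52 to 10.35 without young naïve replicate 1. Mmp9, a gelatinase, fell (-0.94 ± 0.28 and -1.27 ± 0.28), and its call in young mice was lost without young injured replicate 2 (adjusted p = 0.0511, edgeR). The 7 pan-myeloid and 4 fibroblast markers all rose at both ages beside these genes, and their part was not tested.

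Heat shock genes, listed because tissue handling can induce them together with Fos, were split. Of 10 tested, 3 rose and 3 fell at each age, with medians of 0.36 and -0.22. Hspb1, a small heat shock protein that glia also induce, rose by 1.99 ± 0.21 and 1.93 ± 0.20, Hspe1, a mitochondrial chaperonin, by 0.72 ± 0.24 in young mice and its partner Hspd1 by 0.70 ± 0.17 in middle-aged mice. The cytosolic chaperone genes Hsph1 (-0.78 and -0.78), Dnaja1 (-0.64 in young) and Hsp90aa1 (-0.63 in middle-aged) fell. At the other age, Hspe1 stood at 8.47 to 16.0 CPM in middle-aged naïve and 16.0 to 19.0 CPM in middle-aged injured pools. Hspd1 stood at 69.6 to 96.7 CPM in young naïve and 126 to 148 CPM in young injured pools. Dnaja1 had 99.25 to 122.5 CPM in middle-aged naïve and 75.2 to 76.4 CPM in middle-aged injured pools. Hsp90aa1 had 557 to 797 CPM in young naïve and 422 to 473 CPM in young injured pools. The Hspe1 call was lost without young naïve replicate 1 or 3 or young injured replicate 1, with values of 0.60 to 0.70. Hspa1a and Hspa1b, the classic inducible pair, are near-identical copies between which reads can be split, and neither passed.

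**Figure D5:**
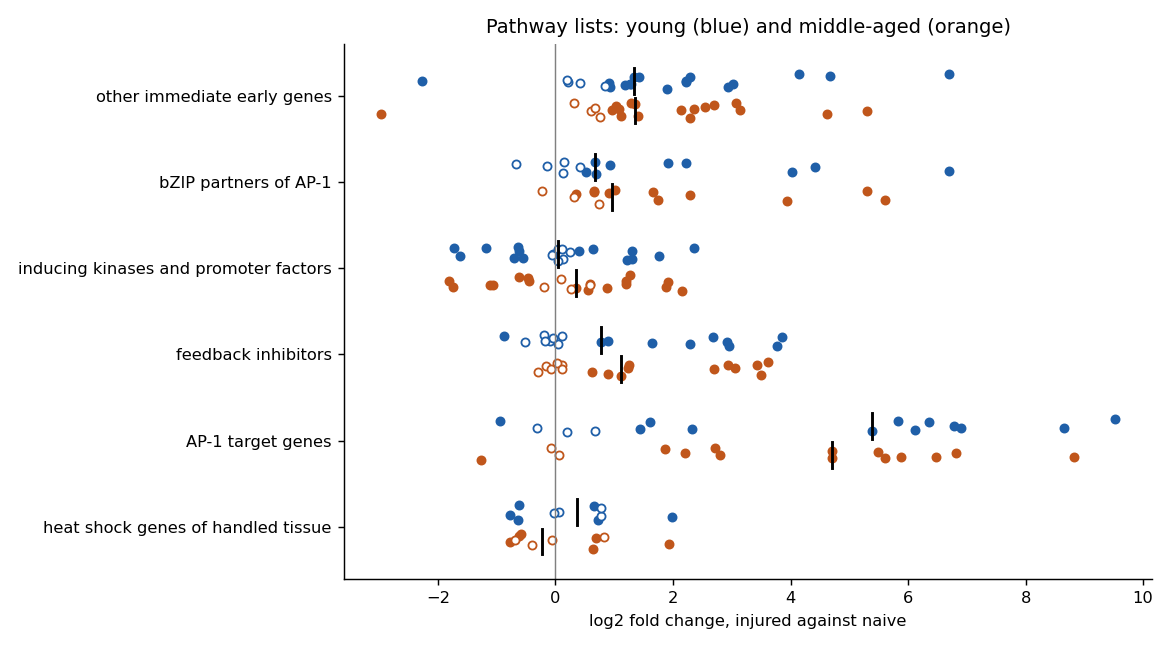
Log2 fold change on injury (horizontal axis) of each tested gene of 6 lists, young above in blue and middle-aged below in orange, with filled points for an adjusted p under 0.05 and black bars at the list median. AP-1 target genes have medians of 5.39 and 4.71, while the kinase list is divided around 0; the Mmp13 points and the young Mmp12 point rest on 0 to 3 naïve counts per group and depend on the prior count.

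Between the ages, 3 of the 21 other immediate early genes passed in naïve tissue: Atf3 at 1.89 ± 0.30, Ccn1, a matrix-associated signalling protein, at 1.67 ± 0.26, and Myc at 1.1 ± 0.21, with adjusted p of 0.00363, 0.00363 and 0.00931. Of the AP-1 targets, Mmp12 (3 counts in young against 146 in middle-aged naïve pools together, a ratio of 47.0 with a counting interval of 15.8 to 230) and Plau, the urokinase gene, at 2.38 ± 0.58, passed. Hspb1 passed at 0.84 ± 0.21 and the kinase gene Mapk7 at -0.86 ± 0.21. The fitted Mmp12 value was 5.39, and 6.22 without young naïve replicate 1. None of the feedback inhibitors passed. The calls of Hspb1, Mapk7 and Plau were lost in 12, 10 and 9 of the alternative settings. The Hspb1 call held only without young naïve replicate 1 or middle-aged naïve replicate 2 among single pools left out, and the Mapk7 call only without young naïve replicate 2, middle-aged naïve replicate 3 or middle-aged injured replicate 3. The Plau call held without young naïve replicate 2 (where the value was 3.26), middle-aged naïve replicate 1 or middle-aged injured replicate 1 or 3. In injured tissue Mmp12 alone passed, at 1.47 ± 0.30 (adjusted p = 0.027), and its call was lost without any 1 of the young injured pools or middle-aged injured replicates 1 and 2, where it was 1.19 to 1.55 (adjusted p from 0.107 to 0.187). None of the list genes passed the test of different injury effects.

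Over the 12 pools, the genes whose log2 CPM was most like that of Fos were Hspb1 (Pearson r = 0.979), Xdh (0.978) and Chtf8 (0.976), among 13071 genes with a mean log2 CPM of at least 1. Those most like Egr1 were Ubxn11 (0.989), Pctp (0.988) and Mctp1 (0.978). Those most like Fosl1 were Bco2 (0.925), Nrap (0.919) and Trim21 (0.910). The 12 points fall into 4 groups and share each pool's library, so these values describe the pattern and carry no p. Hspb1 averaged 5.19 and 9.30 CPM in young and middle-aged naïve pools and 20.8 and 35.6 CPM in the injured pools, the same order of groups as Fos.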

How the data were processed

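Laser-captured white matter RNA was amplified and sequenced on a NextSeq500. The authors' reads were checked with FastQC 0.11.4, mapped with TopHat 2.0.10 (internal aligner Bowtie 1.1.2) on GRCm38 and counted with featureCounts, and the deposited values are raw counts per Ensembl gene. The annotation release, strand setting and handling of shared reads are not given in the sources used here. Gene symbols came from the GENCODE reference and covered 45229 of 46078 identifiers. Counts were fitted with edgeR 4.0.16 in R 4.3.3: low counts were removed by filterByExpr, libraries were scaled by TMM, and 1 quasi-likelihood fit over all 12 pools gave 5 contrasts (injury at each age, age in naïve and injured mice, and the difference of injury effects). P-values were adjusted over 15866 genes by Benjamini-Hochberg, with a threshold of 0.05. Standard errors were taken from the F statistic, as the fitted log2 change over its root. Prior counts of 2 were used for log2 CPM.

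The members and gene lists were chosen with earlier results of these data known, so no count over them is independent evidence. All 9 tested members are named in every comparison, and Egr3, which was not tested, is given by its counts. From each list, the called genes at either end of the fold changes, up to 2 each, are named per injury comparison, and every called gene up to 5 per age comparison. By this rule a gene named at 1 age can also have passed at the other. A gene that this rule would name is not reported here. Cyr61, Ctgf, Mkl1 and Mkl2 were matched as Ccn1, Ccn2, Mrtfa and Mrtfb. Tests were tried on simulated counts with 200 genes changed: for injury in young mice, over 15536 genes, 52 of 100 genes changed by a log2 fold of 1 and 87 of 99 changed by 2 were recovered, with 6.71% of calls false. For the difference of injury effects, over 15579 genes, 16 of 99 and 66 of 100 were recovered. In the real counts 54.6% of tested genes passed on injury in young mice, far more than were changed in the simulation. The simulated rates may therefore not carry over to the injury tests. Alternatives were DESeq2 1.42.0, other scalings and filters, only the pools compared, a replicate block and leaving out each pool. Pools of a group differed by more than sampling noise, with a chi-square per degree of freedom of 7.48 to 35.7. Promoter windows came from RefSeq on GRCm38.p6.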

Additional observations from a re-analysis of the deposited data

How the results depend on the processing

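Injury calls were stable: over 21 alternative settings, 8 to 9 members passed in young and 7 in middle-aged mice, and in 20 settings none passed the test of different effects. Between naïve ages 2 members passed. This count was 0 with only the pools compared, 3 with every gene kept (Egr1 added, adjusted p = 0.0287) and 1 with the replicate block, and 1 to 2 when single pools were left out. Between injured ages 3 passed with only the pools compared and 0 in every other setting. Deviations of pools from their group means were correlated between groups. The 18 same-numbered pairs gave r from -0.113 to 0.153 (2 over 0.1), and pairs of unlike numbers gave -0.174 to 0.172. Same-numbered pools thus showed no clear pairing, which 3 pools per group cannot exclude. The fit with the replicate block called 8578 and 9151 genes for injury in young and middle-aged mice.

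Of 927 member values 860 kept their call and direction, 14 lost and 6 gained a call, and 47 changed sign, all in comparisons where that gene passed in no setting. Jun between naïve ages became 0.0029 with DESeq2, 0.0039 with RLE size factors, 0.0019 with a filter of 1 CPM in 3 pools, 0.0287 with library totals alone, 0.0127 without mitochondrial genes, 0.0114 with only the pools compared and 0.0023 with the replicate block. Fosl1 on injury in middle-aged mice became 0.0005 with DESeq2 and 0.0931 with library totals, and the Jund difference of effects 0.0033 with DESeq2, 0.0014 with RLE and 0.0003 with every gene kept. With single pools left out, Fosb and Fosl1 ran from -0.34 to 0.20 and -0.35 to 0.0528 between injured ages, Fosl2 and Jun from -0.73 to 0.24 and -0.14 to 0.08 between naïve ages, Fosb and Fosl1 from -0.47 to 0.0661 and -0.30 to 0.27 on injury in middle-aged mice, and the Egr1, Ier2 and Jund differences of effect from -0.74 to 0.10, -0.24 to 0.15 and -0.32 to 0.17. The cause of these changes was not tested. Library totals alone moved the median of all genes to 0.196 and 0.0772 on injury in young and middle-aged mice and to -0.132 for the difference.

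Alternatives for the list genes were added after seeing the data: of 902 values, 43 lost their call and none reversed. Atf3, Ccn1 and Myc lost theirs between naïve ages only where the 6 naïve pools alone were fitted. With 9834447 or more counts per pool, the depth limits Fosb, Fosl1 and Egr3 most.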

Other observations

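Some genes of the kinase and immediate early lists, chosen after their values were seen, are given here with edgeR's adjusted p. All 3 genes of the Jun N-terminal kinases were lower after injury. Mapk8 gave log2 changes of -0.55 ± 0.19 in young and -0.46 ± 0.19 in middle-aged mice (adjusted p = 0.021 and 0.0462) and Mapk9 gave -1.18 ± 0.13 and -1.06 ± 0.13 (adjusted p = 4.09e-06 and 9.94e-06). Mapk10 had the values given above. Their upstream kinase genes Map2k4 (-0.62 and -0.46) and Map2k7 (-0.64 and -1.11) were lower as well. Mapk14, which encodes p38 alpha, rose by 1.30 ± 0.12 and 1.21 ± 0.12 (adjusted p = 7.33e-07 and 1.27e-06). Mapk3, which encodes ERK1, fell (-0.71 and -0.61). Transcript levels say nothing of the activity of these kinases. In the same pools 6 of 8 neuronal markers fell at each age and 1 rose in middle-aged mice. All 7 oligodendrocyte markers fell and all 7 pan-myeloid markers rose at both ages. Of 6 microglial markers, 3 rose and 1 fell in young mice, and 2 rose and 2 fell in middle-aged mice. The part of these markers was not tested.

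The Nr4a genes, orphan nuclear receptors of the same first wave, gave smaller log2 changes than Egr1 or Junb, a difference that was not tested. Nr4a1 gave 0.42 ± 0.35 in young and 0.60 ± 0.33 in middle-aged mice and Nr4a2 0.85 ± 0.51 and 0.76 ± 0.50, none past the threshold. Nr4a3 passed in young mice at 1.19 ± 0.28 (adjusted p = 0.00233) and not in middle-aged mice at 0.67 ± 0.27, and its difference of effects, -0.52 ± 0.39, did not pass. The neuronal activity gene Npas4 and Egr4 did not pass the filter on low counts, like Egr3.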
